A study of Mus musculus with 2 samples.

Results

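The genes described here are 10 cell-surface proteins of mouse, of 31253 genes in the expression table: Cd24a, Cd47, Nt5e (CD73), Prom1 (CD133), Cd44 and Ncam1 (CD56), which are antigens used to recognise or sort neural and retinal progenitors, and the tetraspanins Cd9, Cd63, Cd81 and Cd151. They were taken by name, with no threshold on a measured value, but with earlier results of these data known. All 10 were in the table, and all 10 reached 1 FPKM (the number of sequenced fragments of a transcript divided by its length and by the size of the library) in at least 1 library. RNA sequencing compared 1 library of mNRPCs (mouse neural retinal progenitor cells) with 1 library of retina tissue, both from C57BL/6 mice. The mNRPCs had been isolated from retinas of adult mice and kept to passage 24, on Matrigel, in a serum-free N2/B27 medium with bFGF, a fibroblast growth factor, and the small molecule CHIR99021, which inhibits the kinase GSK3. The age of the mice that gave the retina tissue was not stated in the labels, and the mNRPC library stood for 1 culture at 1 passage. With 1 library per group no difference below has a replicate check, no p-value was computed, and the intervals and floors cover counting error only.

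Progenitor cells carry few proteins of their own at the surface, and they are instead picked out by combinations of adhesion molecules, enzymes and glycoproteins. CD24 is a small, heavily glycosylated protein held by a lipid anchor, CD47 is the signal that tells phagocytes to leave a cell alone, CD73 is the surface enzyme that turns AMP into adenosine and marks young rod photoreceptors, and CD133 is a pentaspan protein of membrane protrusions that photoreceptors place at the base of the outer segment, where new discs form. CD44 is the main receptor for hyaluronan, and NCAM1 is an adhesion molecule of neurons. Tetraspanins cross the membrane 4 times and gather integrins, enzymes and each other into membrane domains, and CD9, CD63 and CD81 are the usual marker proteins of extracellular vesicles.

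The FPKM values of all transcripts summed to 616860 in the mNRPC library and 432256 in the retina library, and the low values of long transcripts gave an estimated 6.66e+06 and 4.96e+06 fragments. All 20 rod photoreceptor markers were lower in mNRPCs, with summed levels of 219 FPKM against 29767 FPKM in retina, and Gnb1, a G protein subunit found in many cell types, held 173 FPKM of the mNRPC sum. Of 10 Müller glia markers 9 were lower in mNRPCs and 1, Vim, was higher (3138 against 101 FPKM). Of 8 retinal progenitor markers, Sox2 (231 against 18.5 FPKM), Nes, Notch1 and Hes1 were at least 2-fold higher in mNRPCs, Pax6 and Six3 differed by less, and Rax and Lhx2 were lower, with Rax listed at 0. Of markers of other cell types, 5 of 7 for erythrocytes and 9 of 12 for microglia and leukocytes were listed at 0 in mNRPCs, where their sums were 0.664 and 3.06 FPKM against 459 and 23.1 FPKM in retina. Of 10 pigment epithelium markers 8 were compared, 7 were lower and 1 was within 2-fold, with sums of 9.72 and 101 FPKM. Retina tissue mixes many cell types, so fewer cells of a type and less RNA per cell cannot be told apart in any ratio given here.

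Of the 10 genes, 7 were at least 2-fold higher in mNRPCs than in retina, namely Cd24a, Cd44, Cd63, Cd151, Cd47, Cd9 and Cd81, where 24.5% of all 13780 compared genes were that much higher. The other 3, Prom1, Nt5e and Ncam1, were at least 2-fold lower, where 30.0% of all compared genes were that much lower. Ratios are on the log2(FPKM + 1) scale, and the median log2 ratio was 3.31 over the 10 genes and -0.12 over all compared genes. The 4 tetraspanins were all higher, with log2 ratios of 1.44 to 4.58 and a median of 3.52. The other 6 antigens were divided into 3 higher and 3 lower, and their log2 ratios ran from -5.93 to 5.47. Summed, the 10 genes held 3581 FPKM in mNRPCs, which was 0.581% of that library, and 490 FPKM in retina, which was 0.113%.

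**Figure D1:**
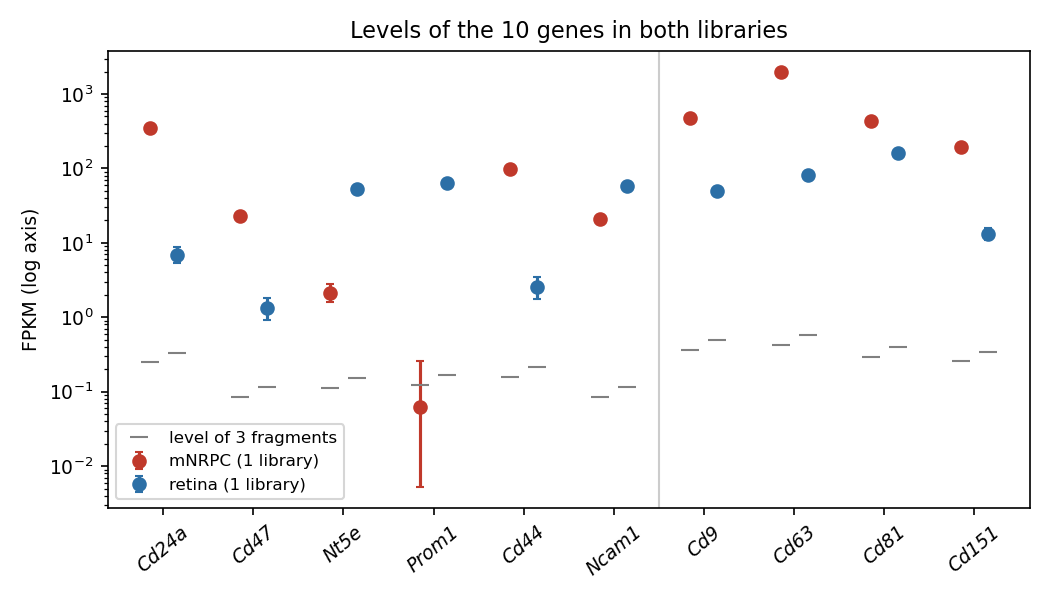
Level of each of the 10 genes in the mNRPC and the retina library as FPKM on a log axis, 1 point per library with its 95% Poisson counting interval, and grey dashes at the level that 3 fragments would give. Cd63 was the highest of the 10 in mNRPCs at 1972 FPKM and Cd81 the highest in retina at 160 FPKM, and Prom1 lay at 0.0631 FPKM in mNRPCs against 63.8 FPKM in retina.

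The order of the levels differed between the libraries. In mNRPCs it ran from Cd63 through Cd9, Cd81, Cd24a, Cd151, Cd44, Cd47, Ncam1 and Nt5e down to Prom1, and the counting intervals of neighbours overlapped only for Cd47 (21.7 to 24.9 FPKM) and Ncam1 (19.6 to 22.5 FPKM). In retina Cd81 and Cd63 came first, followed by Prom1, Ncam1, Nt5e and Cd9, each of whose intervals overlapped that of its neighbour. Across these 4 the interval of Prom1 (60.1 to 67.6 FPKM) lay above those of Nt5e (49.3 to 55.7 FPKM) and Cd9 (44.8 to 56.3 FPKM), but not above that of Ncam1 (54.9 to 60.9 FPKM). Cd151, Cd24a, Cd44 and Cd47 were the lowest in retina, and the intervals of Cd44 and Cd47 overlapped. Among all 13780 compared genes, Cd63 held rank 31 in mNRPCs and 804 in retina, and Cd24a rank 242 in mNRPCs and 8067 in retina. Prom1 went the other way, from rank 1059 in retina to a level in mNRPCs too low to rank, under that of 3 fragments.

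Cd24a (chr10:43579169-43584265, build GRCm38), the gene of the CD24 antigen, had the largest ratio of the 10 genes. Its level was 350 FPKM in mNRPCs (339 to 360 FPKM) and 6.92 FPKM in retina (5.31 to 8.87 FPKM), a log2 ratio of 5.47 ± 0.16 (counting SE) and a plain ratio of 50.5-fold. The value rested on an estimated 4229 fragments in mNRPCs and 62.4 in retina, in a single transcript row. In mNRPCs Cd24a was thus in the range of the tetraspanins, whereas in retina it was lower than every gene of the set except Cd44 and Cd47. Among 6 relatives and binding partners of CD24, 4 were compared, 3 were higher and 1 was lower in mNRPCs, with a median log2 ratio of 1.497. Hmgb1, a nuclear protein that acts as a danger signal outside cells, was at 262 FPKM in mNRPCs and 108 FPKM in retina, and Src, a kinase of adhesion signalling, at 42.4 and 12.2 FPKM.

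Cd47 (chr16:49851328-49912503) was at 23.3 FPKM in mNRPCs and 1.31 FPKM in retina (0.912 to 1.83 FPKM), a log2 ratio of 3.39 ± 0.15 (counting SE). The gene was higher in mNRPCs, but the 2 libraries drew its value from different transcript rows. The curated transcript of 5250 bases, which encodes 324 residues, carried 94.7% of the gene's level in mNRPCs (22.0 FPKM) and 5.79% in retina (0.0761 FPKM), while a predicted transcript carried 94.2% in retina (1.24 FPKM) and 0.939% in mNRPCs (0.218 FPKM). The length of that predicted transcript was not known here and was set to 5250 bases. The retina interval, the SE and the estimated fragments of Cd47 rest on that setting. With curated transcripts alone the log2 ratio was 4.42. Only 4 of the 13 reference accessions of Cd47 were in the table, and rows that matched no current accession held 6.80% of the FPKM in mNRPCs and 10.1% in retina, so the Cd47 level may be understated in either library. Among 7 ligands, receptors and modifying enzymes of the CD47 pathway, 4 were compared, 2 were higher, 1 lower and 1 within 2-fold, with a median log2 ratio of 1.44. Thbs1, a secreted ligand of CD47, was at 105 FPKM in mNRPCs and 0.609 FPKM in retina, whereas Sirpa, the receptor on the opposing cell, was at 0.904 and 42.2 FPKM.

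Nt5e (chr9:88327609-88372089), which encodes CD73, was lower in mNRPCs. Its level was 2.13 FPKM in mNRPCs (1.61 to 2.76 FPKM, an estimated 56.6 fragments) and 52.4 FPKM in retina (49.3 to 55.7 FPKM, 1039 fragments), a log2 ratio of -4.10 ± 0.14 (counting SE) and a 24.7-fold higher level in retina. The transcript was still well over the level of 3 fragments in mNRPCs, which for this gene is 0.113 FPKM. The 20 rod markers, all lower in mNRPCs, had a median log2 ratio of -8.81, and their part in the Nt5e ratio was not tested. The start of Nt5e is shown because this gene was lower in mNRPCs and had 1 RefSeq start window, where Ncam1 had none. The GENCODE annotation starts the Nt5e transcript at 88327197, upstream of that window. The window runs from 250 bases before to 50 bases after the RefSeq start (build GRCm38.p6, chr9:88327359-88327658, plus strand), and capitals mark CG dinucleotides.

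Nt5e start: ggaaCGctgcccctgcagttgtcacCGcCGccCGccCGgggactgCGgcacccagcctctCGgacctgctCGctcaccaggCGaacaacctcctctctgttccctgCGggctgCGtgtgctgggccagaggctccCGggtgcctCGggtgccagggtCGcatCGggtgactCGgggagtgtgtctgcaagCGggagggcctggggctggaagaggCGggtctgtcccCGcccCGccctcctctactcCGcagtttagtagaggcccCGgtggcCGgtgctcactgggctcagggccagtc

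This window held 23 CG dinucleotides, and 78.5% of 32851 RefSeq windows of the same length held fewer (median 7, quartiles 3 and 20). It also held 4 matches to GGGCGG, the core letters of a GC box, counted on both strands with overlapping matches included, and 35.7% of all windows held at least 1. Of 19 genes of extracellular nucleotide breakdown, adenosine transport and adenosine receptors, 8 were compared, 3 were higher and 5 lower in mNRPCs, with a median log2 ratio of -1.53. The lower ones included Alpl, a phosphatase that can also make adenosine, at 0.0763 FPKM in mNRPCs and 87.8 FPKM in retina. Others were the receptor gene Adora1 (0.0231 and 12.7 FPKM) and the nucleoside transporter gene Slc29a2 (2.78 and 13.1 FPKM). The mNRPC values of Alpl and Adora1 rest on fewer than 3 estimated fragments each. Slc29a1, the other nucleoside transporter gene that was compared, was at 49.3 FPKM in mNRPCs and 6.24 FPKM in retina, and Adk, which returns adenosine to AMP inside the cell, at 47.0 and 15.2 FPKM.

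Prom1 (chr5:43993621-44102047), which encodes CD133, was the lowest of the 10 genes in mNRPCs and, with Ncam1, next after Cd81 and Cd63 in retina. Its 13 transcript rows summed to 0.0631 FPKM in mNRPCs, an estimated 1.61 fragments, and to 63.8 FPKM in retina (60.1 to 67.6 FPKM, 1142 fragments). The plain ratio of retina to mNRPCs was 1011-fold, with a 95% counting interval of 246 to 12202-fold, and the log2 ratio with 1 FPKM added was -5.93. The mNRPC level was under the 0.125 FPKM that 3 fragments would give, so Prom1 was not detectable above that floor at this depth. In retina Nt5e and Prom1 were at 52.4 and 63.8 FPKM, and in mNRPCs the interval of Nt5e (1.61 to 2.76 FPKM) lay above that of Prom1 (0.00523 to 0.258 FPKM).

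In retina 1 Prom1 transcript, encoding 842 residues, carried 62.1% of the gene's level (39.6 FPKM). RefSeq gives Prom1 2 starts in the promoter table, 6968 bases apart on the minus strand, and transcripts were assigned to a start within 1000 bases of it. The 6 transcript rows assigned to the downstream start held 72.3% of the retina level (46.1 FPKM). The 2 assigned to the upstream start held 7.81% (4.98 FPKM), and 19.9% had no known start. The division of FPKM between rows is an estimate, and annotated ends do not show where transcription began, so start use was not measured. The 2 windows are shown because the retina level was divided so unequally between the rows assigned to them, again with CG in capitals. The upstream window is chr5:44101687-44101986 and the downstream one chr5:44094719-44095018 (GRCm38.p6, minus strand).

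Prom1 upstream start: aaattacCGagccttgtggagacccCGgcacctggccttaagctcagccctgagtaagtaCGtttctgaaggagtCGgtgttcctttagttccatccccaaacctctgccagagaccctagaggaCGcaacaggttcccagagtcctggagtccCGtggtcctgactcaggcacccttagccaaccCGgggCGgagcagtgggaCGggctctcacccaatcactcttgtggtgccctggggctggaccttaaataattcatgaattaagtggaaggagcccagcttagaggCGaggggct

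Prom1 downstream start: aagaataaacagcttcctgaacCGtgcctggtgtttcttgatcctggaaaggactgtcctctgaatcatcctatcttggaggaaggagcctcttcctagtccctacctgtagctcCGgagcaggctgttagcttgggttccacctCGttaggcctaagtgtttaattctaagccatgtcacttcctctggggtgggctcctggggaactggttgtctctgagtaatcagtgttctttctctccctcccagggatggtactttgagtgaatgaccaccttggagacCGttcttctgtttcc

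The upstream window held 10 CG dinucleotides and 1 match to GGGCGG, and the downstream window 4 CG and no match to these letters. Of all windows, 56.5% held fewer CG than the upstream one and 31.4% fewer than the downstream one. No division between the annotated starts is given for Prom1 in mNRPCs, since the rows there rest on under 3 fragments in all.

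The list around Prom1 held 6 genes, namely relatives or partners and Fut4. Of these 4 were compared, none was higher, 3 were lower and 1 was within 2-fold, with a median log2 ratio of -4.24. Cdhr1, a cadherin of the photoreceptor outer segment base, was at 0.283 FPKM in mNRPCs and 208 FPKM in retina. Ttyh1, a membrane protein of the tweety family, was at 0.108 and 115 FPKM, and Arl13b, a GTPase of cilia, at 7.52 and 28.2 FPKM. Ttyh2, of the same family as Ttyh1, was at 19.2 and 9.38 FPKM, and Prom2, the other prominin, was listed at 0 in both libraries. Fut4, an enzyme that makes the CD15 carbohydrate, was listed at 0 in mNRPCs and at 0.326 FPKM in retina, below the 1 FPKM needed for a comparison. The study had stained mNRPCs by flow cytometry for CD24, CD47, CD73, CD15 and CD133, and those protein measurements were not analysed here.

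**Figure D2:**
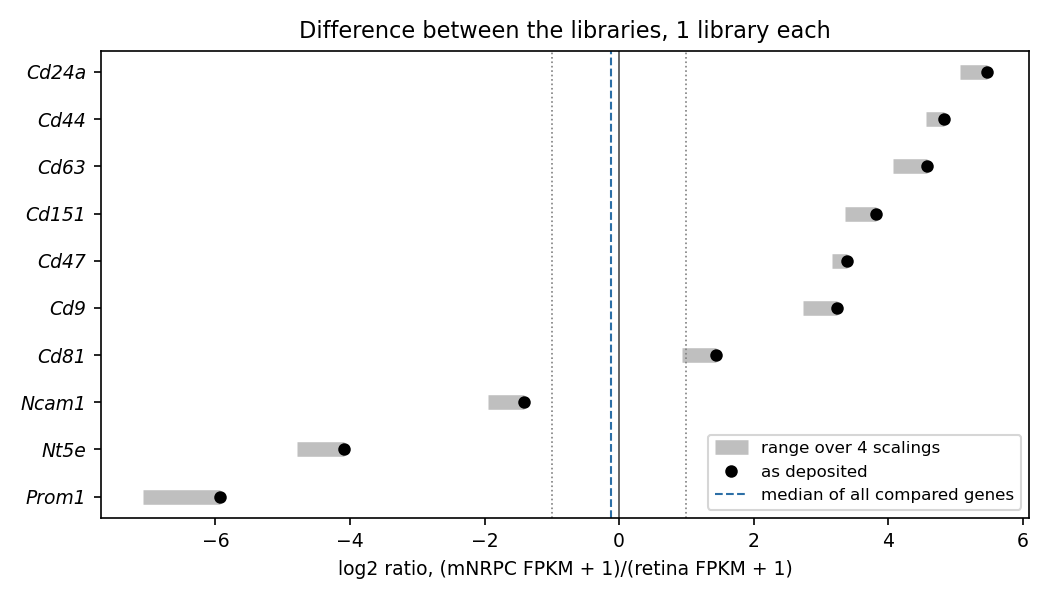
log2 ratio of mNRPC over retina with 1 FPKM added, for the 10 genes in order, as points for the deposited scale with grey bars for the range over 4 scalings (deposited, common sum, upper quartile and trimmed mean), where 0 means equal levels, the dotted lines mark 2-fold and the dashed line the median of all compared genes. Cd24a was at 5.47, the 4 tetraspanins lay between 1.44 and 4.58, and Ncam1, Nt5e and Prom1 were at -1.42, -4.10 and -5.93.

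Cd44 (chr2:102811141-102901669) was at 99.3 FPKM in mNRPCs (94.9 to 104 FPKM) and 2.54 FPKM in retina (1.77 to 3.53 FPKM). The log2 ratio was 4.82 ± 0.18 (counting SE), a 39.1-fold higher level in mNRPCs and the second largest ratio of the set. Cd44 is known for its alternative exons, and all 11 of its reference accessions were in the table. In mNRPCs the transcript of the shortest protein, 365 residues, known as the standard form, held 98.9 FPKM or 99.5% of the gene, and in retina it held 1.90 FPKM or 74.9%. The longest form, of 780 residues, was at 0.0112 FPKM in mNRPCs and 0.00911 FPKM in retina, levels under 3 fragments in either library. The retina shares rest on an estimated 35.3 fragments over the whole gene.

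Of 13 genes around CD44 (hyaluronan synthases and hydrolases, linkers to the cytoskeleton, ligands, a protease and splicing factors), 9 were compared, 8 were higher in mNRPCs and 1 was within 2-fold, with a median log2 ratio of 3.22. Spp1, the secreted ligand osteopontin, was at 1535 FPKM in mNRPCs and 16.5 FPKM in retina. Msn, Ezr and Rdx encode moesin, ezrin and radixin, which tie CD44 to actin. Msn was at 93.1 FPKM in mNRPCs and 6.82 FPKM in retina, with a log2 ratio of 3.59, and Rdx at 49.2 and 29.4 FPKM, with a log2 ratio of 0.73. Hmmr, a hyaluronan receptor linked to dividing cells, was at 25.3 FPKM in mNRPCs and 1.22 FPKM in retina. Mmp14, a membrane protease that cuts CD44, was at 46.1 and 4.06 FPKM, and Hyal2, a hyaluronan hydrolase, at 19.3 and 3.77 FPKM.

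Ncam1 (chr9:49502129-49799393) was lower in mNRPCs by the smallest margin of the 3 lower genes. Its 27 transcript rows summed to 21.02 FPKM in mNRPCs (839 fragments) and 57.9 FPKM in retina (1451 fragments), a log2 ratio of -1.42 ± 0.06 (counting SE) and a 2.75-fold higher level in retina. The forms differed. The row of 848 residues held 11.4 FPKM in mNRPCs and 14.9 FPKM in retina, while the curated row of the shortest protein, 725 residues, held 0.349 and 16.5 FPKM, which was 1.66% and 28.6% of the gene. A predicted row went the other way, at 6.44 FPKM in mNRPCs and 0.854 FPKM in retina, which was 30.6% and 1.48% of the gene. A further curated row held 0.00902 FPKM in mNRPCs and 13.0 FPKM in retina, but it maps to the same annotated transcript as the 848-residue row, so the division between those rows is not resolved. With the highest row of each gene alone the log2 ratio of Ncam1 was -0.36, which is within 2-fold, and with curated rows alone it was -1.83.

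Among 11 NCAM relatives, polysialyltransferases and sialyltransferase relatives, and the receptor gene Fgfr1, 10 were compared, 2 were higher, 7 lower and 1 within 2-fold, with a median log2 ratio of -2.23. Nfasc, which encodes the axonal adhesion protein neurofascin, was at 0.0189 FPKM in mNRPCs and 26.2 FPKM in retina, and Nrcam at 6.85 and 14.9 FPKM. The mNRPC value of Nfasc rests on fewer than 3 estimated fragments. St8sia1, the ganglioside sialyltransferase, was at 0.114 and 30.1 FPKM. The enzymes that add polysialic acid to NCAM1 were named after their values were seen. St8sia4 was 1 of the 2 higher genes, at 5.34 FPKM in mNRPCs and 0.487 FPKM in retina, and St8sia2 was within 2-fold, at 5.44 and 3.14 FPKM.

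**Figure D3:**
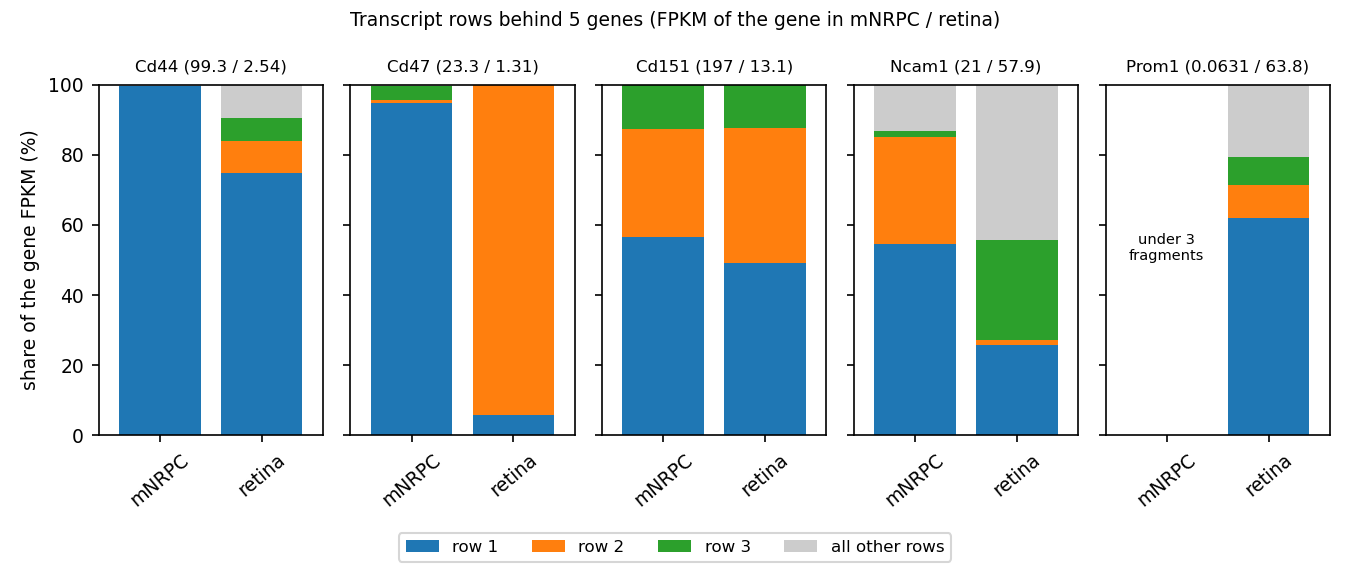
Share of each gene's FPKM in its transcript rows, in percent, for Cd44, Cd47, Cd151, Ncam1 and Prom1 in the mNRPC and the retina library, with the 3 leading rows in colour and all others in grey. A single row held 99.5% of Cd44 in mNRPCs, Cd47 changed its leading row between the libraries, and the Prom1 bar of mNRPCs is left out because it rests on under 3 fragments.

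The 4 tetraspanins were among the more abundant transcripts of the mNRPC library. Cd63 (chr10:128896231-128912822), a protein of late endosomes and lysosomes, was at 1972 FPKM in mNRPCs and 81.8 FPKM in retina, a log2 ratio of 4.58 ± 0.07 (counting SE) and a 24.1-fold higher level. Cd9 (chr6:125460266-125494760), a tetraspanin of the plasma membrane, was at 480 FPKM and 50.3 FPKM, a log2 ratio of 3.23 ± 0.08 and a 9.55-fold higher level. Both genes have a processed pseudogene (Cd63-ps and Cd9-ps) with which fragments could be shared.

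Cd151 (chr7:141467362-141471481), the partner of laminin-binding integrins, was at 197 FPKM in mNRPCs and 13.1 FPKM in retina, a log2 ratio of 3.82 ± 0.13 and a 15.1-fold higher level. Its 3 rows, which all encode 253 residues, held 56.6%, 30.8% and 12.6% in mNRPCs and 49.1%, 38.4% and 12.5% in retina, so that the same row led in both. Cd81 (chr7:143052750-143067930), which has a wide expression in neural and glial tissue, was at 437 FPKM in mNRPCs and 160 FPKM in retina. Its log2 ratio of 1.44 ± 0.05 and its 2.72-fold higher level were the smallest of the 7 genes that were higher. When each library was rescaled to the same sum the Cd81 log2 ratio was 0.93, just inside 2-fold, but that scaling also moved the median of all genes to -0.68, and relative to that median Cd81 was 1.62 higher. On that scaling 18.4% of compared genes were at least 2-fold higher and 42.4% lower, and 6 in place of 7 of the 10 genes were higher.

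The start of Cd9 is shown as that of an abundant tetraspanin with 1 transcript row and 1 RefSeq start (GRCm38.p6, chr6:125494711-125495010, minus strand), with CG in capitals.

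Cd9 start: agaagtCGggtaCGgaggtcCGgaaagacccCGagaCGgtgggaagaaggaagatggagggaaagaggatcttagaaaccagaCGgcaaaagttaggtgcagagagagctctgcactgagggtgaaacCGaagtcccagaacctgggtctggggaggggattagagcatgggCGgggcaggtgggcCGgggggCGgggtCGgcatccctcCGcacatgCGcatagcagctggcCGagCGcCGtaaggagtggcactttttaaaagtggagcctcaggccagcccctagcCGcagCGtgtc

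It held 18 CG dinucleotides, more than 70.3% of all windows, and 2 matches to GGGCGG. The promoter table had 11 windows for 8 of the 10 genes. The Cd81 window held 23 CG, the Cd151 windows 20 and 4, the Cd63 window 6, the Cd44 window 6 and the overlapping Cd47 windows 35 and 36. Genes higher in mNRPCs thus had windows near the median of 7 CG (Cd63 and Cd44, with fewer CG in 43.6% of all windows) as well as with many (Cd47 and Cd81), and Nt5e, which was lower, had as many as Cd81. The letters TATAAA, the core of a TATA box, were in the Cd81 window alone among the 11, on either strand, against 13.6% of all windows. In the GENCODE annotation the leading transcripts of Cd63 and Cd44 start at 128909699 (plus strand) and 102901510 (minus strand), downstream of their windows. No methylation or binding was measured in these libraries, so the windows are a description of sequence only.

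**Figure D4:**
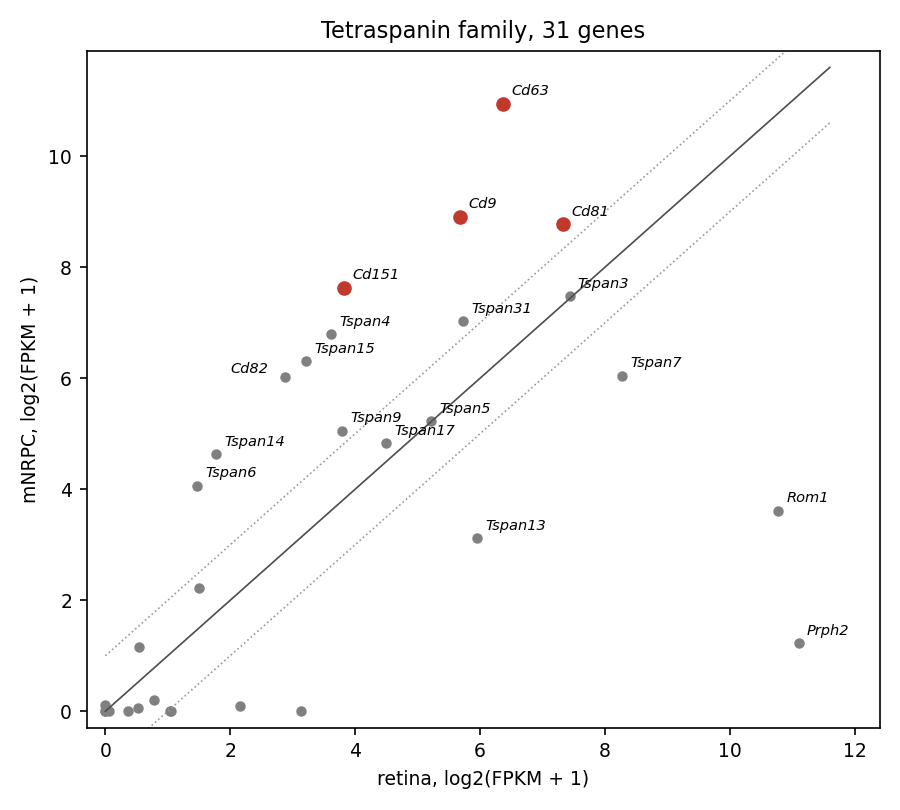
Each of the 31 tetraspanin family genes by its level in retina (x axis) and mNRPCs (y axis), both as log2(FPKM + 1), with equal levels on the solid line, 2-fold on the dotted lines and the 4 described tetraspanins in red. Cd63, Cd9, Cd151 and Cd81 lay above the upper dotted line, and Prph2 and Rom1 lay far below the lower one.

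Across the tetraspanin family, 24 of 31 genes were compared, of which 11 were higher, 8 lower and 5 within 2-fold, with a median log2 ratio of 0.67, beside 24.5% higher and 30.0% lower over all compared genes. After rescaling to a common sum 8 were higher and 9 lower, beside 18.4% and 42.4% over all compared genes. Leaving out the 4 described genes, 7 of 20 compared genes were higher, 8 lower and 5 within 2-fold, with a median of 0.19. These 4 held 79.7% of the family's 3871 FPKM in mNRPCs and 6.15% of its 4968 FPKM in retina, and Cd63 alone held 50.9% and 1.65%. In retina 79.6% of the family's level came from Prph2 and Rom1, tetraspanins that shape the rims of photoreceptor discs. Prph2 was at 1.34 FPKM in mNRPCs and 2199 FPKM in retina, and Rom1 at 11.2 and 1754 FPKM. Without that pair the 4 described genes held 80.0% of the family level in mNRPCs and 30.1% in retina.

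Of the other family members, the 3 with the next largest ratios were named after their values were seen. Tspan4, a protein of cell migration, was at 110 FPKM in mNRPCs and 11.2 FPKM in retina (log2 ratio 3.18). Cd82, which restrains cell movement, was at 64.2 and 6.31 FPKM (log2 ratio 3.16), and Tspan15, a partner of the protease ADAM10, at 77.9 and 8.31 FPKM (log2 ratio 3.08). These ratios were close to that of Cd9. At the other end, Tspan13 was at 7.66 FPKM in mNRPCs and 61.0 FPKM in retina, with a log2 ratio of -2.84. Tspan7 and Tspan3, named after their values were seen as the most abundant in retina after the disc pair, were at 65.0 and 308 FPKM and at 177 and 172 FPKM.

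Of 16 proteins known to bind tetraspanins, most of them membrane proteins, 14 were compared, 11 were higher in mNRPCs, 2 lower and 1 within 2-fold, with a median log2 ratio of 2.52. Timp1, a secreted protease inhibitor that binds CD63, was at 77.9 FPKM in mNRPCs and 0.460 FPKM in retina. The retina value of Timp1 rests on fewer than 3 estimated fragments. Cldn1, a tight junction protein and partner of CD81, was at 76.5 and 0.986 FPKM, and Itga6, the laminin-binding integrin chain that pairs with CD151, at 42.0 and 0.555 FPKM. Cd36 and Cd46 were the 2 lower genes, and neither reached 10 FPKM in a library. Among genes that did, the smallest ratios were those of Igsf8, a close partner of CD9 and CD81, at 47.9 FPKM in mNRPCs and 79.8 FPKM in retina, and of the proteases Adam17 (13.6 and 4.93 FPKM) and Adam10 (60.9 and 15.3 FPKM).

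Of 12 genes of vesicle formation often measured beside tetraspanins, 8 were higher in mNRPCs, 1 lower and 3 within 2-fold, with a median log2 ratio of 1.57. Sdc1, a heparan sulfate proteoglycan, was at 29.8 FPKM in mNRPCs and 0.335 FPKM in retina, Lamp2, a lysosomal membrane protein, at 303 and 38.3 FPKM, and Sdc4 at 161 and 28.8 FPKM. The smallest ratios among genes with at least 10 FPKM were those of Tsg101, Hgs and Pdcd6ip, which take part in sorting cargo into vesicles. Tsg101 was at 43.0 FPKM in mNRPCs and 46.5 FPKM in retina, Hgs at 21.7 and 22.8 FPKM, and Pdcd6ip, which encodes ALIX, at 29.0 and 13.6 FPKM, a log2 ratio of 1.04. The 1 lower gene was Rab27a, a GTPase of vesicle release, at 0.288 FPKM in mNRPCs and 5.29 FPKM in retina, named after its values were seen. The log2 ratio of Cd63, at 4.58, was close to that of Sdc1, at 4.53, and those of the other compared genes of this list were 2.95 or less.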

How the data were processed

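RNA was extracted with Trizol from 1 mNRPC and 1 retina sample and sequenced by the study. The deposited table holds FPKM values of 106754 RefSeq transcript rows, computed by the authors. The submitters' processing notes name TopHat2 2.0.10 and GRCm38.p3, and the study's methods name Bowtie 2 and eXpress, so the tool behind these values is not settled here; the annotation release is not given in the sources used here. The authors' table holds no counts.

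Rows were matched by accession, without version, to RefSeq symbols (74280 rows, 69.6%; 93.2% of the mNRPC and 89.9% of the retina FPKM) and summed per gene. Genes with at least 1 FPKM in 1 library were compared by log2(FPKM + 1), as the study added 1, and called at 2-fold. These fold changes understate the change of low genes. Since no counts were given, the fragments behind a value were estimated from the steps between low FPKM values of 5938 rows of at least 1500 bases; 52.5% and 50.1% of low rows lay within 0.2 of a whole fragment, where evenly spread values would give 40%, so the estimate rests on a weak signal and counting SEs, floors and 95% Poisson intervals are approximate. A row without a known length was given the longest known length of its gene. Fragments, SEs, floors and intervals of Cd47, Ncam1 and Prom1, which have many such predicted rows, rest partly on that setting. Gene coordinates and start windows are from RefSeq GRCm38.p6 and its gene annotation, and patch releases keep the coordinates of the primary chromosomes. Transcript starts are from the GENCODE annotation and can differ from the RefSeq starts.

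Groups followed the labels. Without replicates no test was run, and the share of all compared genes past the same fold stands beside each count of the 10 genes. The 10 genes and the gene lists were chosen with earlier results of these data known, and the list of progenitor markers was added last. Named were all 10 genes, Fut4, and of each list of partners, pathways or antigens its genes with at least 10 FPKM in 1 library or, where over 6, the 3 largest and 3 smallest ratios among these; other genes of a list were named after their values were seen, and cell type markers are given by counts and sums with the genes that carry them. Pseudocounts of 0.1 and 0.5, 3 scalings, curated rows, the highest row, versioned accessions and other filters were tried as alternatives. Python 3.11.15, pandas 2.3.3, numpy 2.4.6, scipy 1.17.1 and matplotlib 3.10.9 were used.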

Additional observations from a re-analysis of the deposited data

How the results depend on the processing

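No direction of the 10 genes was reversed under the alternatives tried: of 80 log2 ratios, 51 stayed within their counting interval and 29 moved beyond it. Call changes came from Cd81, which was at 0.93 after rescaling to a common sum, and Ncam1, which was at -0.36 with the highest row of each gene alone. Prom1 ranged from -8.61 with a pseudocount of 0.1 FPKM to -5.33 with the highest row, Nt5e from -4.78 to -4.10, and Cd47 from 3.16 to 4.42. The median log2 ratio of the 10 genes, 3.31, became 3.58 with a pseudocount of 0.1 FPKM. It became 2.995 after rescaling to a common sum and 3.05 after upper quartile scaling. With curated rows alone it was 3.52, with the highest row alone 3.58 and with versioned accessions 3.52. Wherever it was 3.52 or 3.58, the Cd47 ratio lay above that of Cd151, which was then a middle value in place of Cd47. The cause of the other moves was not tested. Lower tetraspanin family genes numbered 5 with at least 5 FPKM required, against 8, because fewer genes were compared, and on the common sum 8 were higher, against 11, and 9 lower. The median of all genes moved from -0.12 to -0.68 on the common sum and to -0.41 on the upper quartile. No paired analysis was possible because there was a single library per group, and for the same reason no replicate could be left out. Depth limits Prom1 in mNRPCs and the transcript shares of Cd44 and Cd47 in retina, which rest on 35.3 and 34.2 estimated fragments.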

Other observations

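Other surface antigens of neural, mesenchymal and haematopoietic progenitors, beside the 10 genes, were divided in the same table. Of 27 such genes 22 were compared, 10 were higher in mNRPCs, 6 lower and 6 within 2-fold, with a median log2 ratio of 0.68 beside -0.12 over all compared genes. Vcam1, an adhesion protein of neural stem cells and endothelium, was at 424 FPKM in mNRPCs and 4.04 FPKM in retina. Itga5, the fibronectin receptor chain, was at 30.6 and 0.374 FPKM, and Itgb1, its partner chain, at 268 and 14.2 FPKM. At the other end were Thy1, an antigen of ganglion cells and of mesenchymal cells (0.244 FPKM in mNRPCs and 106 FPKM in retina), Slc1a3, the glutamate transporter of Müller glia (0.0299 and 44.8 FPKM), and Cd200, a neuronal glycoprotein (0.0333 and 20.6 FPKM). The mNRPC values of these last 3 genes rest on fewer than 3 estimated fragments each.

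Of 10 pericyte and fibroblast markers, 2 were higher in mNRPCs, 1 lower and 2 within 2-fold among 5 compared, and 4 were listed at 0 in mNRPCs. Their sum of 458 FPKM in mNRPCs, against 15.1 FPKM in retina, came almost wholly from Col3a1 (450 and 0.311 FPKM). Of 10 endothelial markers 7 were compared, of which 1 was higher in mNRPCs, 5 lower and 1 within 2-fold. In mNRPCs 5 of the 10 were listed at 0. Ly6c1 (138 and 14.1 FPKM) held most of the mNRPC sum of 140 FPKM, against a sum of 66.1 FPKM in retina.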
